A study of Mus musculus with 8 samples.

Results

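Collagens are the structural proteins of the extracellular matrix, built from alpha chains that each have their own gene. The collagens described here are the 37 mouse genes on the array whose symbol is Col followed by a number, the letter a and a number, out of 16593 genes named in the probe table. They were read by 59 of 23978 named probes. A probe passed the filter where 2 or more of the 8 arrays gave it a detection p below 0.05, called above background here, and a gene was represented by its brightest kept probe. In this way 27 of the 37 collagens, with 33 kept probes, were among the 9758 genes tested, and 21 of the 27 were above background on all 8 arrays.

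Preadipocytes were isolated from the white adipose tissue of Irf3-knockout (KO) and wildtype (WT) mice and differentiated in culture, and total RNA was taken at days 3, 5, 7 and 9. The series asks how IRF3, a transcription factor that drives interferon genes below sensors of nucleic acids, bears on the making of fat cells. There was 1 Illumina bead array for each genotype and day, so 4 KO arrays stood against 4 WT arrays and no condition had a replicate. All cultures had high-glucose medium with newborn calf serum, insulin and sodium ascorbate and no other treatment. The strain, sex and number of mice, the number of cultures behind each time course, and the part of Irf3 that was deleted are not given in the sources used here.

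Fibroblasts and preadipocytes secrete fibrillar collagens of types I, III and V, which assemble into the fibrils of connective tissue. Each mature fat cell is wrapped in a basement membrane of type IV collagen with laminins and with the multiplexins of types XV and XVIII, and beaded filaments of type VI collagen link this layer to the fibrils. Inside the cell, prolyl and lysyl hydroxylases modify the new chains with ascorbate as cofactor, and outside it propeptides are cut off and lysyl oxidases crosslink the fibrils.

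By class, 11 of 11 fibrillar genes on the array were tested, 3 of 6 of the basement membrane, 2 of 3 beaded, 4 of 6 fibril-associated, 1 of 2 network-forming, 2 of 2 multiplexins, 2 of 4 transmembrane and 2 of 3 other collagens. The 10 genes that did not pass the filter were Col4a3, Col4a4, Col4a6, Col6a6, Col9a3, Col10a1, Col13a1, Col17a1, Col19a1 and Col26a1, and no probe of theirs was above background on more than 1 array of either genotype. Another 8 collagens of these classes, among them Col6a3, Col8a1 and Col12a1, have no named probe in the table and are not analysed here. Among the 27 tested genes, Col3a1, Col6a1, Col18a1 and Col24a1 had more than 1 kept probe.

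Promoter windows, from 250 bases before to 50 bases after the transcription start in RefSeq's annotation of GRCm38.p6, were found for 30 of the 37 genes, 33 windows in all. The pair Col4a1 and Col4a2 is shown first, because these chains join in 1 protein and lie head to head. Their windows, chr8:11312777-11313076 on the minus strand and chr8:11312555-11312854 on the plus strand, share the 78 bases in capitals, read from opposite strands, and the starts lie 21 bases apart.
Col4a1: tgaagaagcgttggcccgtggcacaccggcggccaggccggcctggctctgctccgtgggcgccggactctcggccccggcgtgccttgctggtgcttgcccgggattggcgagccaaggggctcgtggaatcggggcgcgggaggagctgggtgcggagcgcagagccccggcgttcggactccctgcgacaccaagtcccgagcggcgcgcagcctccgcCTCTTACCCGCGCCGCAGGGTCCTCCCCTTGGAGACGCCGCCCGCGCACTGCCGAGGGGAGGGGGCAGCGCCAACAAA
Col4a2: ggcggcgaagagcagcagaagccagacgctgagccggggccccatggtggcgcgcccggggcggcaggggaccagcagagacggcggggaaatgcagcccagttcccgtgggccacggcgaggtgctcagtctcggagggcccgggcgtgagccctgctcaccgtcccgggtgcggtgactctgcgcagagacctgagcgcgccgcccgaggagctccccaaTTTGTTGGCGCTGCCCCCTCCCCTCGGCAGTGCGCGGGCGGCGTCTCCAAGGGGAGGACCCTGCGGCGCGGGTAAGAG

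Below them stand the windows of Col1a2, a chain of type I collagen, at chr6:4505368-4505667 on the plus strand, and of Col23a1, the collagen with the largest mean genotype difference, at chr11:51289670-51289969 on the plus strand. Capitals mark matches, on either strand, to the GC box GGGCGG or to CCAAT.
Col1a2: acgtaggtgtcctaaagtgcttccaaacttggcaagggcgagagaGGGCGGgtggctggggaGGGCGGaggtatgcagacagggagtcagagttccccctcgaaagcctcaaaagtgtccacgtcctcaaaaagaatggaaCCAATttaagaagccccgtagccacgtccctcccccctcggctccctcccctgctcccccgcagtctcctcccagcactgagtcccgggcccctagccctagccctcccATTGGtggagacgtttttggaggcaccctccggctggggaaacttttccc
Col23a1: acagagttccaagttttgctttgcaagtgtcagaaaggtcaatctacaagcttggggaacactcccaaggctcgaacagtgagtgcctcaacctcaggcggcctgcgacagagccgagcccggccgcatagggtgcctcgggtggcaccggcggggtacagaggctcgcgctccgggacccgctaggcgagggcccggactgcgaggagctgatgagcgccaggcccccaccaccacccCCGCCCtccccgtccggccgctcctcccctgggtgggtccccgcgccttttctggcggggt

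The GC box was found in 20 of the 33 collagen windows and in 35.7% of 32851 promoter windows of the same length. CCAAT was found in 12 of the 33 and in 37.4% of all windows. The core of the element that interferon regulatory factors bind, GAAA and a further GAAA after any pair of bases, was found in 0 of the 33 and in 3.44% of all windows. Both strands were searched, no motif is contained in another, and the counts describe the windows only.

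The raw intensities were corrected for background, quantile-normalized and put on a log2 scale, in which every array ran up to 14.95. Mean raw intensity was 638 on the WT day 3 array and 891 to 1026 on the other arrays. Between 47.57% and 52.2% of probes were above background. The brightest Irf3 probe gave 10.75, 10.72, 10.36 and 11.09 in KO, against 11.0003, 11.21, 11.38 and 11.35 in WT, above background on all 8 arrays. As the deleted part of Irf3 is not known here, this level checks nothing about the labels. All 20 macrophage markers tested had a mean difference above 0 in KO and 12 of the 20 passed the test, and their summed intensity ran from 17609 to 130214 over the KO arrays and from 4829 to 50977 over the WT arrays. The adipocyte markers summed to 32341 to 101148 in KO and 28322 to 63404 in WT, with 4 of 14 called higher. The preadipocyte markers summed to 28817 to 51294 in KO and 35596 to 54122 in WT, with 1 of 14 called higher and 12 of 14 below 0. All 14 preadipocyte markers on the array passed the filter, and 13 of them were above background on all 8 arrays. The list shares Eng with the endothelial markers, and detection alone does not show which cells were present. Of the mesothelial markers 4 of 6 were called lower, with sums of 404 to 5173 in KO and 862 to 8664 in WT. The endothelial markers were below 0 for 12 of 12, with 1 called lower and sums of 6001 to 9640 in KO and 7382 to 14107 in WT. Of the myofibroblast markers 1 of 9 was called lower, with sums of 43876 to 52232 in KO and 47276 to 58100 in WT. Of the skeletal muscle markers 1 of 10 was called higher, and their median difference was 1.43 on day 3 and 0.04, -0.21 and 0.29 on days 5, 7 and 9. The part of these markers in the collagen differences below was not tested. In RNA of whole cultures, fewer cells of a type and less RNA per cell cannot be told apart.

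The first comparison was between the genotypes, with the 4 daily differences, KO minus WT, as repeats. These days are time points and not independent replicates of a genotype. As the number of mice and cultures is not given, genotype cannot be told apart from mouse or culture preparation in any test below. No collagen was called at an adjusted p under 0.05, 0 of 27, where limma called 4.85% of all 9758 genes, 2.74% higher and 2.11% lower in KO, and 6 of the 27 had an unadjusted p under 0.05, as had 1981 of the 9758 genes. The mean difference was above 0 for 9 collagens and below 0 for 18, with a median of -0.09 on the log2 scale, next to a median of -0.02 over all genes. The 4 KO arrays stood all above the 4 WT arrays for 0 of the 27, against 2.31% of all genes, and all below for 0, against 3.52%. On all 4 days 5 collagens were lower and 3 higher in KO, against 13% and 13.8% of all genes.

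The chains of type I collagen, the bulk of most connective tissue fibrils, did not pass the test. Col1a1 had log2 intensities of 14.34, 14.41, 14.48 and 14.46 at days 3, 5, 7 and 9 in KO, against 14.34, 14.49, 14.45 and 14.56 in WT. The 8 arrays lay within a narrow band and the groups overlapped. Col1a1, like Col5a1 and Col6a1 below, lay close to 14.95, the top value that normalization gave every array. Whether differences are narrowed near that top was not tested, so the narrow band is not read as stable expression. The difference of Col1a1 was -0.04 ± 0.13 (moderated SE of the fit, 4 days) with a 95% interval of -0.34 to 0.26. Col1a2, the partner chain, gave 13.06, 13.60, 13.21 and 13.42 in KO, against 12.59, 13.77, 13.80 and 13.69 in WT. The WT day 3 array was the lowest of the 8, and on the 3 later days the WT array was the higher of its pair. The mean difference of Col1a2 was -0.14 with an interval of -0.60 to 0.32.

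Type III and type V chains join type I in mixed fibrils, and type V sets the fibril diameter. Col3a1 gave 13.46, 13.62, 13.97 and 13.85 in KO, against 13.33, 13.86, 13.62 and 13.81 in WT. The groups overlapped, and the mean difference of Col3a1 was 0.07 ± 0.15, while its second probe averaged -0.16 with daily differences of 0.55, 0.20, -0.47 and -0.94. The probes of Col3a1 thus gave opposite signs, and no direction is stated for that gene.

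Col5a1 gave 14.25, 14.09, 14.11 and 14.16 in KO, against 13.97, 14.40, 14.27 and 14.34 in WT. Its partner Col5a2 gave 8.48, 8.39, 8.49 and 8.72 in KO, against 7.96, 9.05, 9.00 and 9.20 in WT. For both chains the KO array was higher on day 3 and lower on days 5, 7 and 9. Over the 4 days Col5a1 differed by -0.09 ± 0.15 and Col5a2 by -0.28 ± 0.22.

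**Figure D1:**
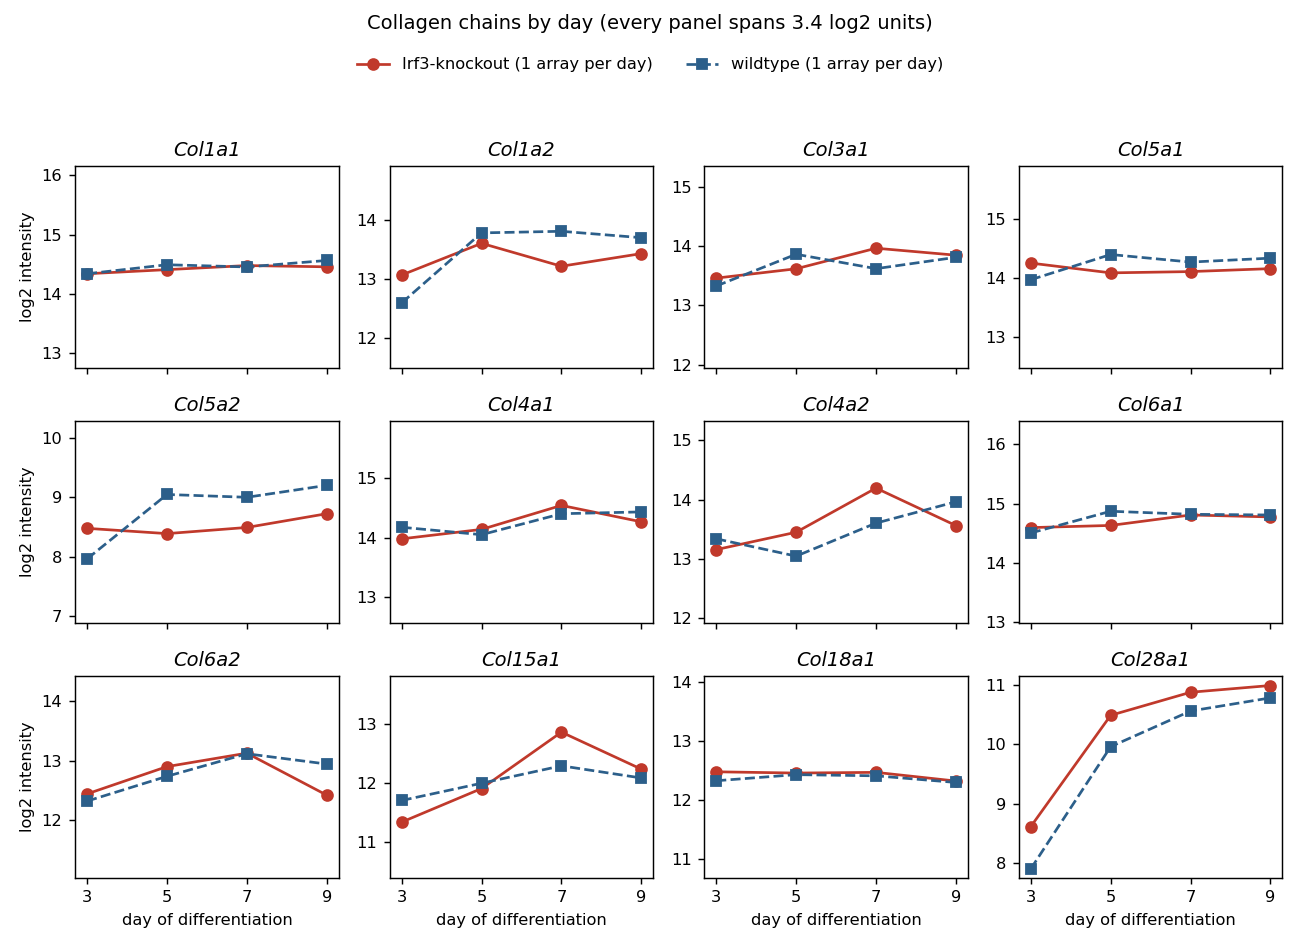
Log2 intensity of 12 collagen genes by day of differentiation, with Irf3-knockout as red circles and wildtype as blue squares, 1 array per point and panels of equal height in log2 units. Col1a1 stays between 14.34 and 14.56 in both genotypes, Col28a1 climbs in both, and Col5a2 is higher in knockout on day 3 and lower afterwards.

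The basement membrane chains Col4a1 and Col4a2 moved together from day to day. Col4a1 gave 13.98, 14.14, 14.54 and 14.27 in KO, against 14.18, 14.05, 14.40 and 14.43 in WT. Col4a2, whose promoter window is shared with Col4a1 as shown above, gave 13.15, 13.45, 14.19 and 13.56 in KO, against 13.34, 13.04, 13.60 and 13.96 in WT. In both chains the KO array was the lower of the pair on days 3 and 9 and the higher on days 5 and 7.

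The mean differences were -0.03 (95% interval -0.36 to 0.29) for Col4a1 and 0.10 (-0.37 to 0.58) for Col4a2. The other tested relative, Col4a5, which forms its own networks with chains that were below background here, was lower in KO on all 4 days, by 0.08, 0.35, 0.49 and 0.48. Its mean difference was -0.35 ± 0.14 with an adjusted p of 0.229, so Col4a5 did not pass the test.

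Of the beaded type VI chains, Col6a1 gave 14.60, 14.63, 14.81 and 14.78 in KO, against 14.51, 14.87, 14.82 and 14.81 in WT. Col6a2 gave 12.44, 12.90, 13.13 and 12.42 in KO, against 12.32, 12.74, 13.12 and 12.94 in WT. The groups overlapped in both chains, and the widest gap was that of Col6a2 on day 9. The mean differences were -0.05 (95% interval -0.37 to 0.27) for Col6a1 and -0.06 (-0.45 to 0.33) for Col6a2, and the other probes of Col6a1 averaged -0.16 and -0.14.

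The multiplexins carry chondroitin or heparan sulfate chains in basement membrane zones, and Col18a1 is the source of the fragment endostatin. Col15a1 gave 11.34, 11.91, 12.86 and 12.23 in KO, against 11.71, 12.00, 12.29 and 12.09 in WT. Col18a1 gave 12.48, 12.46, 12.47 and 12.32 in KO, against 12.33, 12.43, 12.41 and 12.30 in WT. Col15a1 was spread more widely over the KO arrays, from the lowest to the highest of the 8, while the brightest Col18a1 probe kept almost the same level on all arrays.

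Mean differences were 0.07 for both, with 95% intervals of -0.36 to 0.50 for Col15a1 and -0.24 to 0.37 for Col18a1. A second Col18a1 probe varied more, with 8.10, 8.17, 8.72 and 8.01 in KO, against 8.45, 8.28, 8.38 and 7.26 in WT. Its daily differences were -0.34, -0.11, 0.35 and 0.75, with a mean of 0.16. The dimmest kept Col18a1 probe was above background on 4 KO arrays and 0 WT arrays, with log2 intensities of 5.71, 6.19, 5.71 and 5.67 in KO, against 5.30, 4.98, 5.23 and 5.18 in WT. As the WT values of that probe are only a bound, it was at least 1.12-fold higher in KO, and it was not tested as a gene. It passed the filter through the KO arrays alone, so its higher KO values are no support for a genotype difference.

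The collagens closest to a genotype call were minor chains. Col23a1, a transmembrane collagen that can be shed from the cell surface, gave 5.73, 6.42, 6.06 and 6.29 in KO, against 6.12, 8.15, 7.44 and 6.98 in WT. It was lower in KO on each of the 4 days, most on day 5, and its lowest WT array lay within the KO range. Averaged over days Col23a1 was 2.07-fold lower in KO (log2 difference -1.05 ± 0.24, 95% interval -1.62 to -0.48), with an adjusted p of 0.0597, just outside the threshold. Without background correction the difference of Col23a1 was -0.48 ± 0.14 (adjusted p = 0.0837).

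Col7a1, the collagen of the anchoring fibrils that fasten the epidermis to the dermis, gave 8.27, 7.997, 7.14 and 7.27 in KO, against 8.11, 9.18, 8.63 and 8.06 in WT. On day 3 the KO array was slightly higher, and on the later days it was the lower of its pair. The mean difference of Col7a1 was -0.82 ± 0.27 with an adjusted p of 0.146. A second Col7a1 probe was not above background on any array.

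Col24a1, a fibrillar chain described in developing bone, gave 8.47, 9.61, 8.36 and 8.88 in KO, against 8.61, 10.05, 9.88 and 9.53 in WT. Both groups had their highest array on day 5, and the widest gap between them was on day 7. Its mean difference was -0.69 ± 0.23 (adjusted p = 0.161), and its second kept probe averaged -0.77. Col27a1, a fibrillar chain of cartilage, differed by -0.67 ± 0.20 (adjusted p = 0.121).

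On the other side of 0 stood Col28a1, Col9a1 and Col9a2, the last of which was not above background on any WT array and has no rank among them. Col28a1, a collagen with von Willebrand factor domains known from peripheral nerve, gave 8.61, 10.49, 10.88 and 10.99 in KO, against 7.90, 9.96, 10.56 and 10.78 in WT. The KO array was the higher of each pair, by 0.71, 0.53, 0.32 and 0.21 on the 4 days, while the groups overlapped across days. Its mean difference was 0.44 ± 0.15 (adjusted p = 0.154).

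The chains Col9a1 and Col9a2 belong to type IX collagen, which coats cartilage fibrils. Col9a1 gave 6.32, 6.83, 6.20 and 5.85 in KO, against 6.10, 6.06, 5.63 and 5.95 in WT, higher in KO on 3 of 4 days. Col9a2 gave 5.04, 4.99, 5.54 and 6.12 in KO, where 2 arrays were above background, against 4.94, 4.92, 5.12 and 5.57 in WT, where 0 were. Limma's adjusted p was 0.315 for Col9a1 and 0.341 for Col9a2, and no fold bound above 1 could be given for Col9a2.

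Of the remaining tested members, Col11a1, Col2a1 and Col25a1 were each above background on 1 KO and 1 WT array, and Col11a2 on 2 and 3. Their mean differences were -0.22, -0.40, 0.09 and -0.53. Col5a3, another type V chain, differed by 0.08, with the KO day 7 array the highest of the 8 at 9.26. Among the fibril-associated collagens Col14a1 differed by -0.14 and Col16a1 by -0.44, and the network-forming Col8a2 by -0.31. Of the 11 fibrillar genes 9 were below 0, with a median of -0.22.

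**Figure D2:**
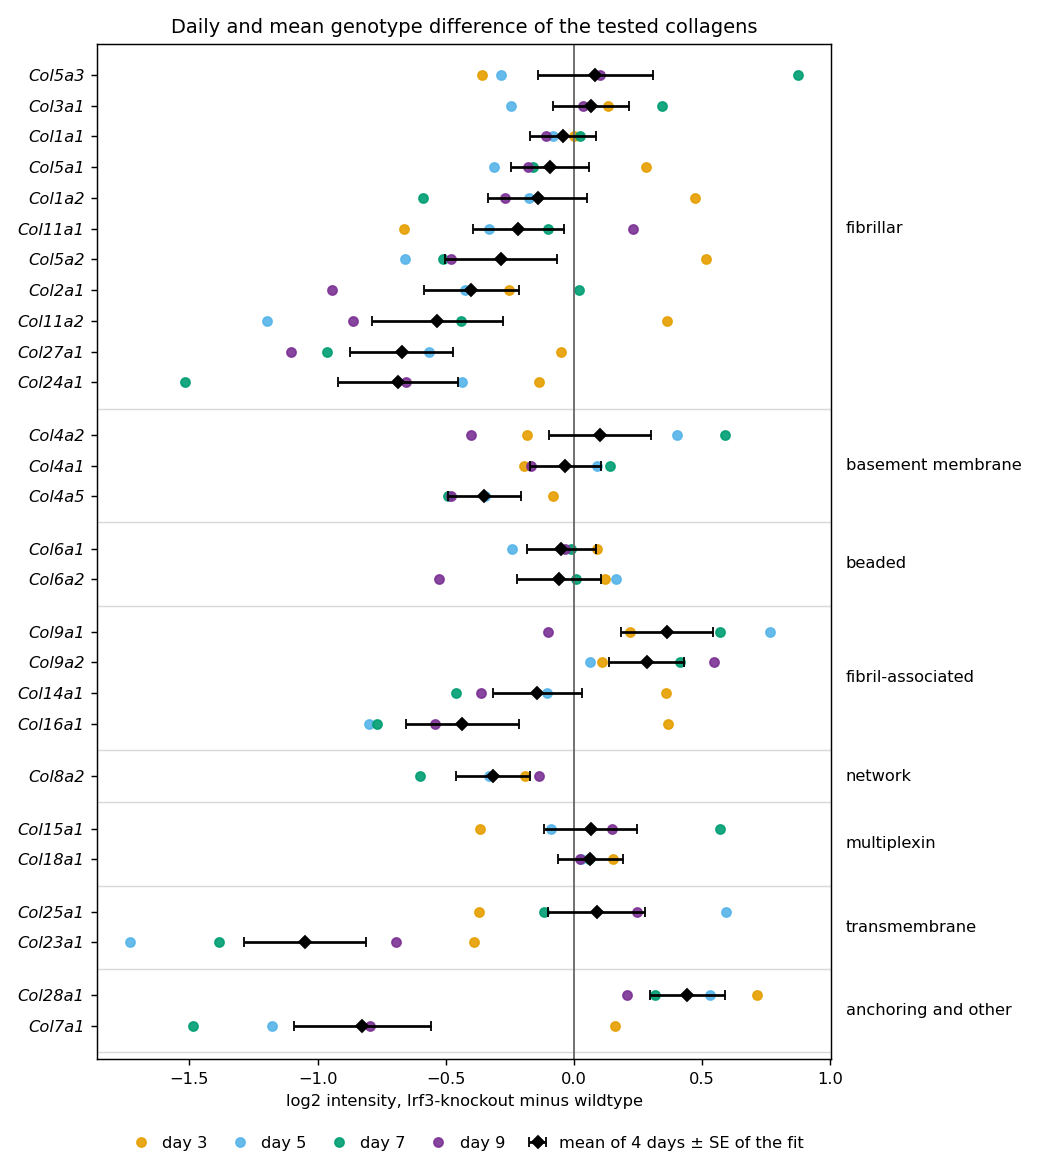
Knockout minus wildtype log2 intensity of the 27 tested collagens by class, with coloured points for the 4 days and black diamonds with bars for the mean and its SE from the limma fit. Day 3 lies above 0 and the later days below 0 for Col1a2, Col5a1, Col5a2, Col6a1, Col7a1, Col11a2, Col14a1 and Col16a1. It is also the highest of the 4 days for Col4a5, Col18a1, Col23a1, Col24a1, Col27a1 and Col28a1. For Col4a1, Col5a3, Col11a1, Col15a1 and Col25a1 it is the lowest. Col23a1 has the lowest mean at -1.05.

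The daily differences followed a common order in many members, with day 3 apart from the rest. On day 3 the median difference of the 27 collagens was 0.09, and on days 5, 7 and 9 it was -0.25, -0.10 and -0.18, while the median over all genes stayed between -0.04 and 0.03. At least 2-fold differences between the 2 arrays of a day, which have no test, were seen for 0 collagens on day 3, where 3.11% of all genes were that much higher and 2.36% lower. On day 5 the differences of Col7a1, Col11a2 and Col23a1 were that much lower in KO, 3 of 27 against 4.09% of all genes, and 0 were higher, against 4.92%. The KO value of Col11a2 on that day was not above background, so its fold is not a measured one. On day 7 the 3 lower ones were Col7a1, Col24a1 and Col23a1, with 5.04% lower and 5.73% higher over all genes. Day 9 had Col27a1 alone, with 3.86% lower and 5.42% higher over all genes.

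Leaving out day 3, limma called 5 of 27 collagens lower in KO, 18.5%, where it called 5.35% of all genes lower, and 0 higher, against 5.74%. Without day 5, 7 or 9 it called 0 of 27, so the count rests on which day is left out. Those fits called only 96, 90 and 83 of 9758 genes lower and 103, 92 and 78 higher. Little about collagens can thus be read from a count of 0 in them. Col7a1 differed by -1.15 ± 0.18 over days 5 to 9 (adjusted p = 0.0149) and Col23a1 by -1.27 ± 0.22 (adjusted p = 0.0209). These were falls of 2.22-fold and 2.41-fold. Col27a1 differed by -0.88 ± 0.17 (adjusted p = 0.0275), with log2 intensities of 6.86, 6.40 and 6.43 in KO, against 7.43, 7.36 and 7.54 in WT on those days, without overlap.

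Col16a1, a fibril-associated collagen of many connective tissues, fell by 0.70 ± 0.15 (adjusted p = 0.0353), with 12.88, 12.61 and 12.86 in KO, against 13.68, 13.38 and 13.40 in WT. Col11a2, a cartilage fibril chain, gave 5.09, 5.22 and 5.80 in KO, against 6.29, 5.65 and 6.67 in WT, with a fitted difference of -0.83 ± 0.19 (adjusted p = 0.0423). Its KO values on days 5 and 7 lay under the lowest value above background on those arrays, 5.73 and 5.49, so the size of that difference is not a measured one. The groups did not overlap for Col16a1 and did for Col11a2. Col27a1, Col16a1 and Col11a2 were singled out after their values were seen.

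Over days 5 to 9, 13 of the 27 collagens were lower in KO on each day. The share of all genes that were so is not given here, and nothing particular to collagens is read from this count. The difference between day 3 and the later days was itself tested, as an alternative added after the data were seen. It was below 0 for 19 of 27 collagens, a count also given without the share of all genes. Limma called 0 of 27 and 0 of 9758 genes for it, with 6 collagens and 1331 genes at an unadjusted p under 0.05. The estimates nearest to a call were -1.07 ± 0.29 for Col5a2, -1.32 ± 0.36 for Col7a1, -1.07 ± 0.30 for Col16a1 and -1.20 ± 0.38 for Col11a2, with adjusted p of 0.307, 0.308, 0.311 and 0.322. A shift of the collagens after day 3 was thus not shown by a test of the shift.

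**Figure D3:**
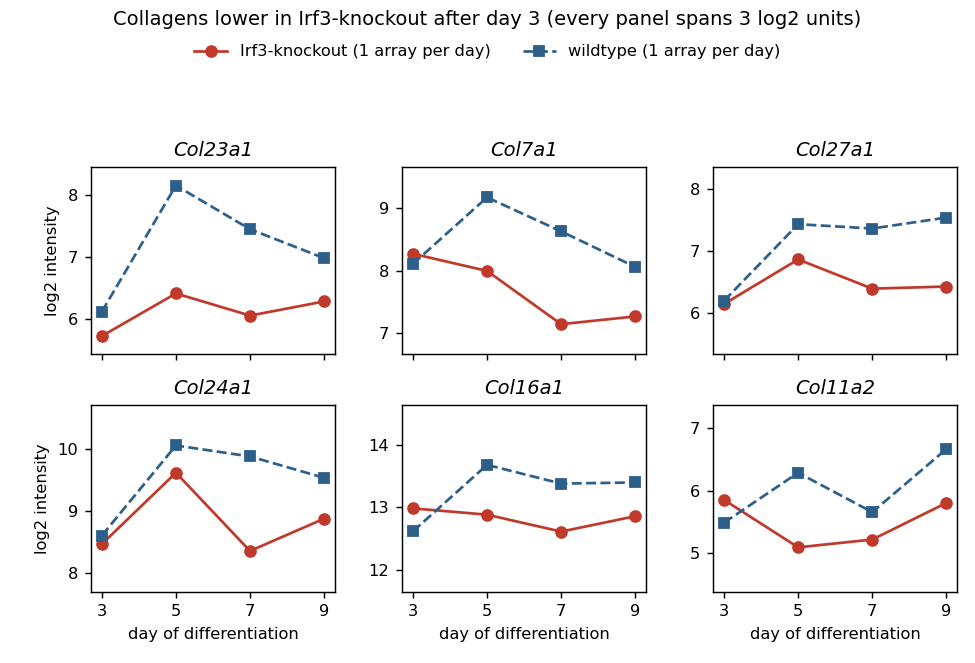
Log2 intensity by day of 6 of the 13 collagens that were lower in Irf3-knockout (red circles) than in wildtype (blue squares) on days 5, 7 and 9, 1 array per point. On day 3 the differences run from -0.39 for Col23a1 to 0.37 for Col16a1. The gap afterwards is widest for Col23a1 on day 5 and for Col24a1 and Col7a1 on day 7.

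Over time, as a slope per day fitted across both genotypes, the collagens pointed upward. The slope was above 0 for 23 of 27 and for 11 of 11 fibrillar genes, and for 4417 of all 9758 genes. Its median was 0.08 log2 units per day, next to -0.01 over all genes. Col2a1, Col8a2, Col9a2, Col11a1 and Col25a1 were above background on days 7 or 9 alone. The filter thus favoured a rise in these genes, and their signs are no support for one. Without the filter the slope was above 0 for 26 of 37 collagens, with a median of 0.06. Without the WT day 3 array it was above 0 for 19 of 27, with a median of 0.03, and without day 3 in both genotypes for 16 of 27, with a median of 0.02. Limma called 4 of 27 collagens, where it called 16.8% of all genes. The 4 were rising, against 8.54% of all genes, and 0 were falling, against 8.25%. Nothing particular to collagens is read from 4 calls.

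Col28a1 rose by 0.42 ± 0.08 per day (adjusted p = 0.00863), most of it between days 3 and 5, as its 8 values above show. Between those days it climbed by 1.88 log2 units in KO and by 2.06 in WT. Its call was lost without day 3 (slope 0.17, adjusted p = 0.154) and without the KO day 3 array (0.37, adjusted p = 0.0633).

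Col8a2, a short-chain collagen that forms lattices beneath endothelia such as that of the cornea, gave 5.26, 5.06, 5.75 and 6.56 in KO, against 5.45, 5.40, 6.35 and 6.70 in WT. It was above background on 2 arrays of each genotype, and the days 7 and 9 were the higher ones in both. Col8a2 rose by 0.23 ± 0.04 per day (adjusted p = 0.0104), a call lost without day 9 (0.17, adjusted p = 0.210).

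The other calls were of dim probes. Col9a2, with the values given above, rose by 0.15 ± 0.04 per day (adjusted p = 0.0285). Col2a1, the main collagen of cartilage, gave 4.67, 4.93, 5.52 and 5.09 in KO, against 4.93, 5.36, 5.49 and 6.04 in WT, and rose by 0.13 ± 0.04 per day (adjusted p = 0.0492). Both calls were lost under most of the other settings tried.

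For the main chains the slopes per day were 0.03 for Col1a1, 0.10 for Col1a2, 0.07 for Col3a1, 0.06 for Col4a1, 0.11 for Col4a2, 0.02 for Col5a1, 0.11 for Col5a2, 0.04 for Col6a1, 0.06 for Col6a2, 0.13 for Col15a1 and -0.01 for Col18a1, and none of them passed the test. The summed linear intensity of the 27 collagens was 135014, 148081, 170254 and 154176 over the 4 days in KO, against 127932, 164007, 167669 and 173081 in WT. In each genotype the day 3 array had the lowest sum, and the groups overlapped.

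The slopes were then set against each other. Their median was 0.04 per day in KO and 0.10 in WT, and the difference in slope, KO minus WT, was below 0 for 20 of 27 collagens, with a median of -0.06. That direction rested on single arrays, as the difference was below 0 for 10 of 27 without the WT day 3 array (median 0.01), for 13 without the KO day 9 array (median 0.0028) and for 14 without day 3 in both genotypes. Limma called 0 of 27 collagens for this difference, where it called 0% of all genes. At an unadjusted p under 0.05 there were 0 collagens and 595 of all genes.

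The median step of the collagens was largest from day 3 to day 5 in each genotype, but not every measure or member followed it. The summed KO intensity was 135014 on day 3, 148081 on day 5 and 170254 on day 7. Col8a2 and Col9a2, both called as rising, changed by -0.20 and -0.06 in KO and by -0.06 and -0.01 in WT from day 3 to day 5. In KO that step was at least 2-fold up for 2 of 27 collagens, Col28a1 and Col24a1, against 4.89% of all genes, with a median step of 0.16. In WT it was at least 2-fold up for 9 of 27, against 6.69% of all genes, with a median of 0.42. The 9 were Col28a1, Col23a1, Col24a1, Col27a1, Col1a2, Col14a1, Col5a2, Col16a1 and Col7a1, with steps from 2.06 down to 1.07.

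The step was larger in WT for 19 of 27 collagens and for 54.4% of all genes. Each step sets 1 array against 1, so it has no test, and the WT step rests on the WT day 3 array, whose raw intensity was the lowest. Without background correction the counts were 1 in KO and 5 in WT, and on the deposited processed values they were 3 in KO and 10 in WT. The part of that array in the step was not tested. From day 5 to day 7 and from day 7 to day 9 the median steps were 0.07 and 0.05 in KO, and -0.04 and 0.11 in WT.

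**Figure D4:**
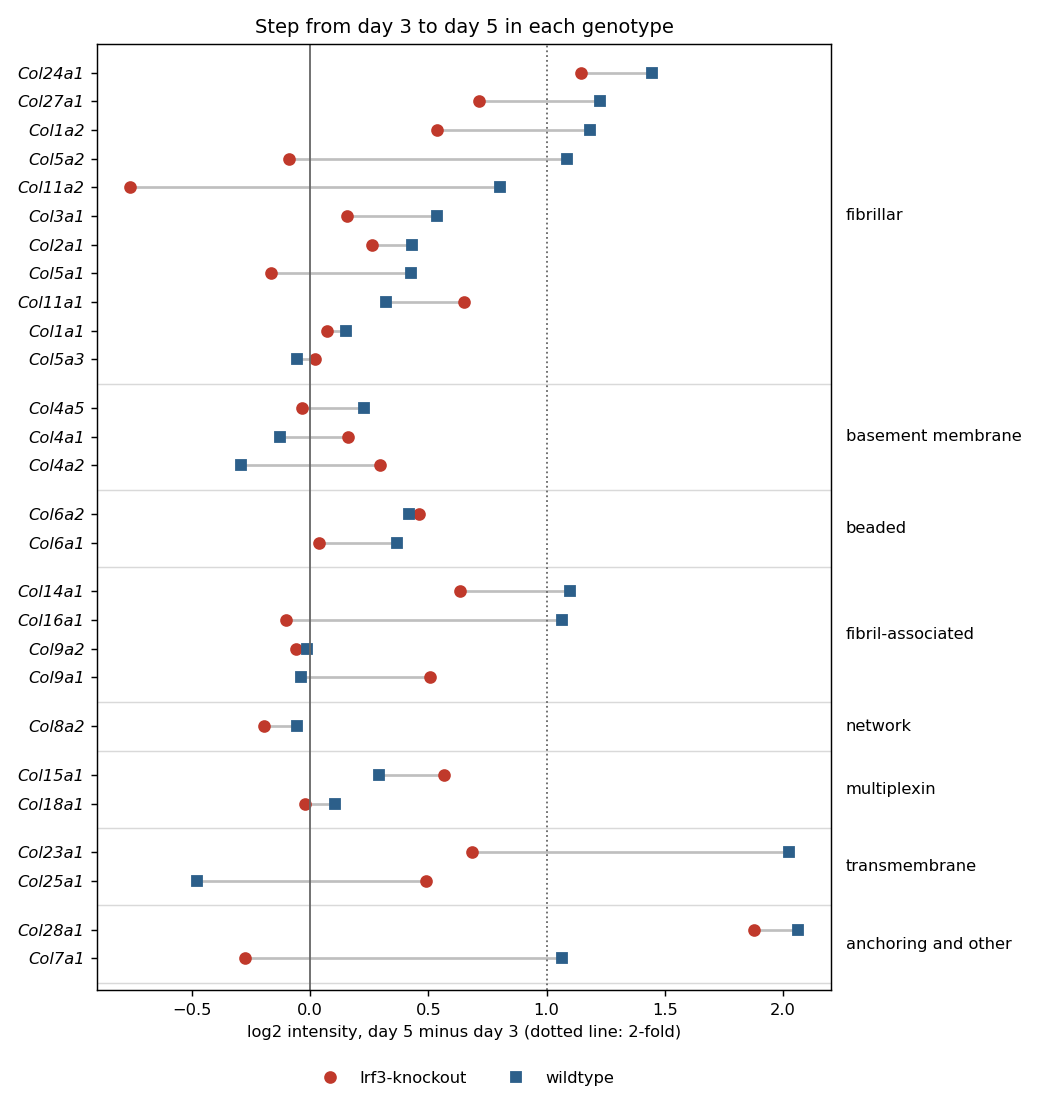
Change of log2 intensity from day 3 to day 5 for the 27 tested collagens by class, with Irf3-knockout as red circles and wildtype as blue squares, 1 array per day and genotype, and a dotted line at 2-fold. In wildtype 9 collagens lie beyond the line and in knockout 2, Col24a1 and Col28a1.

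The genes that modify, crosslink, bind and break down collagen were taken from 4 lists. The part of the cell type markers given above in their differences was not tested. Over all genes the mean difference was below 0 for 5154 of 9758, with 2.11% called lower and 2.74% higher, shares that stand beside each list. In the list of chain modification and folding, 0 of 15 tested genes were called for genotype, the mean difference was below 0 for all 15, and the median was -0.46. The closest were Plod1, a lysyl hydroxylase (-0.85 ± 0.20, adjusted p = 0.0636), and the prolyl 4-hydroxylase subunits P4ha3 (-0.70 ± 0.18, adjusted p = 0.0803) and P4ha2 (-0.89 ± 0.26, adjusted p = 0.108). P3h1, a prolyl 3-hydroxylase, followed with -0.46 ± 0.14 (adjusted p = 0.129). The 4 KO arrays of Plod1, at 9.19, 9.19, 8.81 and 8.85, lay below the 4 WT arrays, at 9.38, 10.33, 9.68 and 10.04. Serpinh1, the chaperone that collagen folding needs, was lower in KO on all 4 days, by 0.29, 0.40, 0.30 and 0.42.

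Leaving out day 5, 7 or 9 gave 0 calls here and in the 3 lists below, in fits that called few of all genes, as given above. Leaving out day 3, 5 of 15 were called lower, against 5.35% of all genes, a share that stands beside the lists below as well. The 5 were P4ha2 at -1.20, Plod1 at -1.06, P4ha1 at -0.87, P3h3 at -0.76 and Colgalt1, which adds galactose to hydroxylysine, at -0.75. With day as the variable, P3h1 fell by 0.18 per day (adjusted p = 0.00710) and Plod2 by 0.15 (adjusted p = 0.0286). None of the 15 was called as rising, where 8.54% of all genes were, and 8.25% of all genes were called as falling.

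In the list of propeptide removal and crosslinking, all 9 tested genes were below 0 for genotype, with a median of -0.36, and 0 of 9 were called. The closest were the lysyl oxidases Loxl2 (-0.83 ± 0.22, adjusted p = 0.0929) and Loxl3 (-0.80 ± 0.29, adjusted p = 0.186), Tgm2, a transglutaminase (-0.44, adjusted p = 0.321), and Bmp1, which removes the C-terminal propeptide (-0.38, adjusted p = 0.371). Loxl2 gave 10.15, 9.39, 8.70 and 8.66 in KO, against 10.24, 10.12, 9.83 and 10.03 in WT, so the gap widened with day. Without day 3, Loxl2 was called at -1.08, and so was Loxl3, whose KO values on those days were not above background. Over days Pcolce2, an enhancer of propeptide removal, fell by 0.30 per day, and Tgm2 and Loxl4 fell by 0.16 and 0.14, with adjusted p of 0.00791, 0.0486 and 0.0498.

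Of 6 receptors of collagen, 6 were below 0 and 0 were called for genotype. Mrc2, an endocytic receptor that takes up cleaved collagen, was closest (-0.67 ± 0.16, adjusted p = 0.0640), and without day 3 it was called along with Itga11, the integrin chain of fibroblasts for fibrillar collagen. Itga11 gave 11.83, 12.10, 12.16 and 12.73 in KO, against 11.19, 12.88, 13.25 and 13.30 in WT, higher in KO on day 3 and lower on the later days. Itga11 rose by 0.24 per day (adjusted p = 0.0345) and Ddr2, a receptor tyrosine kinase for fibrillar collagen, fell by 0.25 per day (adjusted p = 0.0277).

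Of 10 collagen-degrading proteases and their inhibitors, 9 were below 0 and 1 was called. Mmp9, the gelatinase that macrophages also make, gave 7.30, 7.11, 6.88 and 8.19 in KO, against 8.002, 7.62, 7.80 and 8.88 in WT. The KO array was the lower of every pair, and Mmp9 fell by 0.71 ± 0.14 on the log2 scale (adjusted p = 0.0360). That call was lost without day 5, 7 or 9, with median scaling, on the deposited values and without the day term. Without background correction and with a trended and robust variance prior, 2 and 3 of the 10 were called lower. So were 1 and 2 of the 15 genes of chain modification, and 1 and 1 of the 9 of crosslinking. Over all 9758 genes the counts called lower were 294 and 342. On the deposited values 1 of 6 receptors was called lower, and 157 of 9311 genes. Without day 3, Mmp9, Timp1 and Timp3 were called lower, at -0.71, -0.76 and -1.02. Timp1 and Timp3 encode inhibitors of metalloproteases.

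**Figure D5:**
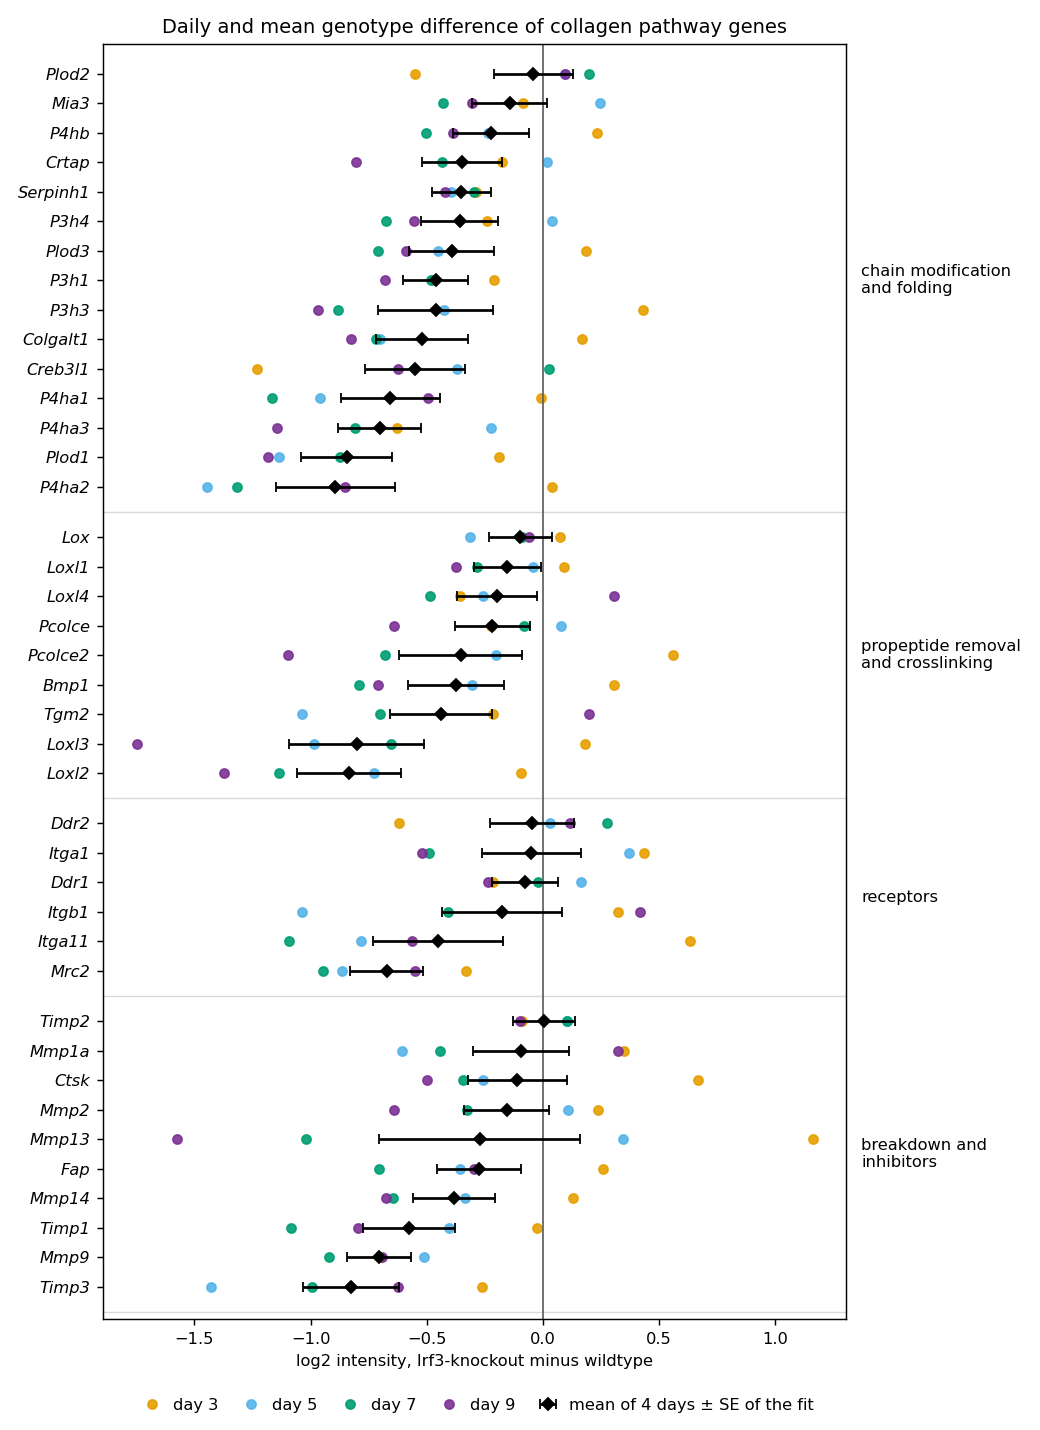
Knockout minus wildtype log2 intensity of the tested genes that modify, crosslink, bind or break down collagen, with coloured points for the 4 days and black diamonds with bars for the mean and its SE from the limma fit. All means but that of Timp2 lie below 0, and Mmp9 is the gene that passed the test.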

How the data were processed

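Per the labels' protocols, biotinylated cRNA of total RNA was hybridised to Illumina bead arrays, 8 arrays in all. The authors deposited a table that is not normalized, with the linear intensity of each probe averaged over its beads and no background taken off, and per the file headers a detection p-value beside each intensity. They also deposited processed values, an intensity on a linear scale with a floor, made by steps not given in the sources used here.

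Background correction from the detection p-values, an offset of 16, quantile normalization and the log2 step were done on the raw table by neqc of limma 3.58.1, run in R 4.3.3. The filter kept probes that 2 or more arrays detected at p below 0.05. Of 25697 probes 23978 had 1 gene symbol and 1719 had none, and the brightest kept probe stood for a gene. No genome build of the array is stated, so positions are printed only for the RefSeq promoter windows.

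The genotype test fitted day as a factor, with 3 residual degrees of freedom, the slope per day fitted genotype, with 5, and the difference in slope was their interaction, with 4. Adjusted p-values are from limma's moderated tests, two-sided, with Benjamini-Hochberg adjustment over 9758 genes, and under 0.05 made a call. Errors are standard errors of the fits, with each gene's variance moderated by limma toward a value shared over all tested genes. The p-values and intervals thus rest on that shared variance as well as on the gene's own spread between days. A true change of the genotype difference with day counts as error. With 1 array per genotype and day, the number of arrays limits the precision. On simulated data the genotype test called 48 of 100 true differences of 1 log2 unit and 98 of 100 of 2 units, and 10.4% of its calls were false. For slopes of 0.25 and 0.5 per day, the slope test called 80 and 100 of 100, with 2.7% of calls false. For differences in slope of those sizes, 2 and 56 of 100 were called, with 3.33% false. A lack of calls, above all for the difference in slope, is thus weak evidence of no difference.

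The members and lists were chosen with earlier results of these data known. Values on every array are given for called members, for 11 main chains and for the 3 largest mean differences in each direction. Of each pathway list, genes called or up to 4 with the smallest p are named. Serpinh1, which was not called, was named outside that rule. Alternatives were other background corrections, scalings, filters, probe rules and variance priors, the deposited processed values, no day term, and leaving out days or arrays.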

Additional observations from a re-analysis of the deposited data

Results flagged for a closer look

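One probe outside the tested set of brightest probes gave a signal in 1 genotype alone. It reads Col18a1 and was above background on all 4 KO arrays and on 0 of 4 WT arrays. The probe passed the filter through the KO arrays alone and was flagged for this split, which is thus no support for a genotype difference. Its KO value on day 3 was 5.71, where the lowest value above background on that array was 5.66. The share of all probes with such a split is not given here. The mean difference of this Col18a1 probe, KO minus WT, came out at 0.65 on the log2 scale, but the WT values are not above background, so what was measured is a bound of at least 1.12-fold higher in KO. The other Col18a1 probes differed by 0.07 and 0.16.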

How the results depend on the processing

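The count of collagens called lower in KO, 0 with all days, was 1 with median scaling and 1 with a trended and robust variance prior, Col23a1 in each case, and 0 to 5 with 1 day left out, where the 5 came without day 3. No setting tried called a collagen higher in KO or different in slope. The sign of the mean genotype difference was the same under every setting for 16 of the 27 collagens, and it changed under at least 1 setting for 11, among them Col1a1, Col1a2, Col3a1, Col4a1, Col4a2, Col6a1, Col6a2 and Col15a1. The count of collagens rising with day, 4, was 2 without background correction, with median scaling, with the filter of 4 arrays or with the trended prior, 0 in KO alone, 0 in WT alone, and 1 to 4 with a day or array left out. The count falling with day was 0 to 1, where Col7a1 was called without the WT day 3 array. The slope of Col14a1 ran from -0.0032 without day 3 to 0.2225 without day 9. Counts at least 2-fold apart on 1 day were 0 on day 5, 1 on day 7 and 0 on day 9 without background correction, and 5 on day 7 and 2 on day 9 on the deposited processed values, where 25 collagens could be tested. The cause of these changes was not tested. The genotype test pairs the arrays by day, and without the day term it called 0 collagens. Probes close to the background, such as those of Col2a1, Col9a2, Col11a1, Col11a2 and Col25a1, limit what the values of those genes can show.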
